A study of Homo sapiens with 6 samples.

Results

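Readthrough genes are annotated genes that join a pair of neighbors on the same strand, and each carries a symbol built from both neighbors' symbols with a hyphen between them. GENCODE release 29 (GRCh38) held 125 such genes. The 73 described here were those listed above 0 in at least 3 of the 6 libraries, out of 21539 identifiers listed in any library. They were thus chosen by whether a measured FPKM value was listed, and listing is given below as a description without a test. The RNA came from SW480, an established human colorectal cancer line. Lentiviral short hairpins were delivered from the pLKO.1 vector, and infected cells were selected with puromycin. Whether the selected cells were kept as pools or as clones is not given in the sources used here. One group carried the nontargeting hairpin shNT (2 libraries). The others carried shPcyt2-1 (2 libraries) or shPcyt2-2 (2 libraries), hairpins against PCYT2, an enzyme of phosphatidylethanolamine synthesis. Nothing in the labels says that the libraries of a group came from separate cultures, so a p value measures the spread between these libraries, which may be technical.

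Transcription that runs past the polyadenylation site of one gene can enter the next gene on the same strand, and splicing can then join exons of both into a single RNA. Such an RNA shares most of its exons with genes that are also transcribed on their own. Short reads from a shared exon can be assigned to the readthrough gene or to a neighbor, and only reads across the junction between the genes, or in exons found in neither neighbor, belong to the readthrough gene alone. Proper ending of transcription depends on the cleavage and polyadenylation machinery and on factors that release RNA polymerase II.

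An annotated splice junction that links an exon of the upstream gene directly to an exon of the downstream gene was found for 62 of the 73 genes. At least 41 of these had a junction inside the coding sequence, counted from 1 junction per gene with 1 chromosome left out. Shown are those of BLOC1S5-TXNDC5, RPL17-C18orf32, CORO7-PAM16 and RBM14-RBM4, genes with large differences between groups below, and of ISY1-RAB43, the gene with the largest gap between 1 library and the rest. The sequences were read from the GENCODE release 29 transcripts, 5′ to 3′ on the transcribed strand, with the last 15 bases of the upstream gene's exon in lower case and the first 15 bases of the downstream gene's exon in capitals.
BLOC1S5-TXNDC5: caggaacgaaaaaagGTGTGGACACTGCCA
RPL17-C18orf32: gcccagaagaaaaagTTGAGGAGCTCAAGC
CORO7-PAM16: gacgaggacgagtggGCCAAGTACCTGGCC
RBM14-RBM4: gtgacgtggtgaaagGCAAACGAATGCACG
ISY1-RAB43: cagaaggctcctgggCTGCAGATCTGGGAC
In GRCh38 the BLOC1S5-TXNDC5 junction runs from 8026367 to 7904723 on the minus strand of chromosome 6, over an intron of 121643 bases. That of RPL17-C18orf32 joins 49489359 to 49483771 on the minus strand of chromosome 18, and that of CORO7-PAM16 joins 4355286 to 4343291 on the minus strand of chromosome 16. For RBM14-RBM4 the positions are 66617057 and 66643450 on the plus strand of chromosome 11, and for ISY1-RAB43 they are 129130088 and 129095169 on the minus strand of chromosome 3. Reads across these junctions were not analysed here, since the deposited tables hold 1 value per gene.

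The libraries carried the markers of colorectal epithelium for the most part. KRT8, a keratin of simple epithelia and the most abundant marker, lay between 2734 and 3861 FPKM (a level per kilobase of gene and per unit of library size), EPCAM between 258 and 312 FPKM and CDX2 between 9.88 and 16.9 FPKM. KRT20, CEACAM5 and CEACAM6 stayed below 1 FPKM in every library, so 3 of the 10 markers were near absent. Markers of other cell types were low but not all absent. The leukocyte marker PTPRC and the fibroblast marker COL3A1 were unlisted in all 6 libraries, while LYZ (1.24 to 2.11 FPKM) of leukocytes and COL1A1 (1.03 to 1.68 FPKM) and LUM (0.789 to 2.24 FPKM) of fibroblasts were listed in all 6. Of the hepatocyte markers ALB lay at 3.52 to 7.19 FPKM and APOA1 at 0.0856 FPKM or less, and all 3 endothelial markers stayed below 1 FPKM. Some of these lists moved with the groups. The 10 epithelial markers summed to 8211 and 8770 FPKM with shNT, 8432 and 8525 FPKM with shPcyt2-1, and 6258 and 6555 FPKM with shPcyt2-2, where KRT8, KRT18 and KRT19 were each below all other libraries. These 3 keratins made up most of the sum, and the other markers above 1 FPKM did not follow them. CDH1 (17.3 and 16.9 FPKM) and VIL1 (44.7 and 41.3 FPKM) were highest with shPcyt2-2, and EPCAM (308 and 275 FPKM) lay within the range of the other libraries. CDX2 was lowest with shPcyt2-1, at 10.01 and 9.88 FPKM, and overlapped between shPcyt2-2 and shNT. The 5 fibroblast markers summed to 1.88 and 1.94 FPKM with shNT, 3.39 and 3.79 FPKM with shPcyt2-1, and 2.99 and 2.82 FPKM with shPcyt2-2. LUM, at 0.789 and 0.863 FPKM with shNT, stood at 2.17 and 2.24 FPKM with shPcyt2-1 and 1.37 and 1.09 FPKM with shPcyt2-2. The part of these differences in the results below was not tested. PCYT2 stood at 11.6 and 13.8 FPKM with shNT, at 7.11 and 7.36 FPKM with shPcyt2-1 and at 6.71 and 6.18 FPKM with shPcyt2-2. Every knockdown library was under the lower shNT library. The change on log2(FPKM + 1) was -0.73 with shPcyt2-1 (SE 0.10, limma adjusted p = 0.00205) and -0.88 with shPcyt2-2 (SE 0.10, limma adjusted p = 0.00261). Read totals are not given by these values. A relative measure of depth was the reciprocal of the most frequent low value among genes of at most 75 bases. That value was held by 9 to 14 genes in a library. The measure gave shNT 6.89 and 6.23, shPcyt2-1 5.25 and 6.70, and shPcyt2-2 6.87 and 5.89, so the groups overlapped in it.

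Most of the 73 readthrough genes shared nearly all of their exon sequence with their neighbors. A median of 120 exon bases per gene, or 4.33% of its exons, lay in neither neighbor. In 44 genes the own share was under 10%, and in 7 it was over 50%. The annotation types 65 of them as protein coding and 8 as processed transcripts, and they lie on 23 chromosomes. The gap between the neighbors had a median of 5555 bases, and in 11 loci the neighbors overlapped.

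Readthrough genes were mostly low. FPKM is a level per length, so levels can be set side by side between genes. The mean over the 6 libraries had a median of 0.591 FPKM over the 73 genes, with a range from 0.00387 to 32.1 FPKM, against a median of 3.38 FPKM for their 146 neighbors and 2.27 FPKM for all 19746 genes. In 31 loci the readthrough gene lay below both neighbors in every library, and in 6 it lay above both in every library. In each of those 6 a neighbor was unlisted throughout and set to 0, which need not be a low level. DDX39B, a splicing helicase that every cell uses and that is named here after its values were seen, was among the unlisted neighbors, beside ATP6V1G2-DDX39B. As a share of the summed FPKM of a locus (the readthrough gene and both neighbors), the median readthrough gene made up 5.72%. Where a neighbor was unlisted, the share rests on that 0. Of the 146 neighbors 19 were unlisted throughout. For 4 readthrough genes both neighbors were unlisted, and for 11 one was.

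NME1-NME2, the highest of the 73, joins genes of the nucleoside diphosphate kinase family. It stood at 36.0 and 33.6 FPKM with shNT, 21.4 and 24.8 FPKM with shPcyt2-1, and 31.0 and 46.0 FPKM with shPcyt2-2. NME1 (163 to 210 FPKM) and NME2 (749 to 912 FPKM) were far above it, and the readthrough gene made up between 1.91% and 4.67% of the locus sum. PPAN-P2RY11, which joins the ribosome biogenesis gene PPAN to a purinergic receptor, ran from 8.93 to 16.2 FPKM and PPAN from 9.68 to 19.0 FPKM. P2RY11 itself was unlisted in all 6 libraries. BOLA2-SMG1P6 lay between 7.23 and 11.4 FPKM, beside BOLA2, an iron-sulfur cluster assembly factor, at 9.16 to 17.7 FPKM. BOLA2 and SMG1P6 belong to a duplicated stretch of chromosome 16 with near-identical copies, so their values are uncertain. PALM2-AKAP2 held all of its locus sum at 5.54 to 6.96 FPKM, since PALM2 and AKAP2, a paralemmin and an anchor of protein kinase A, were both unlisted. TEN1-CDK3 stood at 3.25 to 4.8 FPKM above TEN1, a subunit of a telomere complex, at 0.990 to 2.99 FPKM, while the kinase gene CDK3 was unlisted.

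The other members among the 10 highest were ANKHD1-EIF4EBP3 (2.93 to 11.5 FPKM), SYS1-DBNDD2 (3.59 to 10.2 FPKM), RNASEK-C17orf49 (1.70 to 6.20 FPKM), RPS10-NUDT3 (2.59 to 6.46 FPKM) and BLOC1S5-TXNDC5, which had the widest range of the 10. RPS10, a protein of the small ribosomal subunit, was at 1120 to 1460 FPKM, so RPS10-NUDT3 made up at most 0.46% of its locus sum. RNASEK, a ribonuclease gene, was at 77.0 to 106 FPKM and C17orf49 at 41.4 to 53.6 FPKM. SYS1, a Golgi trafficking factor, lay at 11.6 to 15.5 FPKM and DBNDD2 at 52.3 to 72.6 FPKM.

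**Figure D1:**
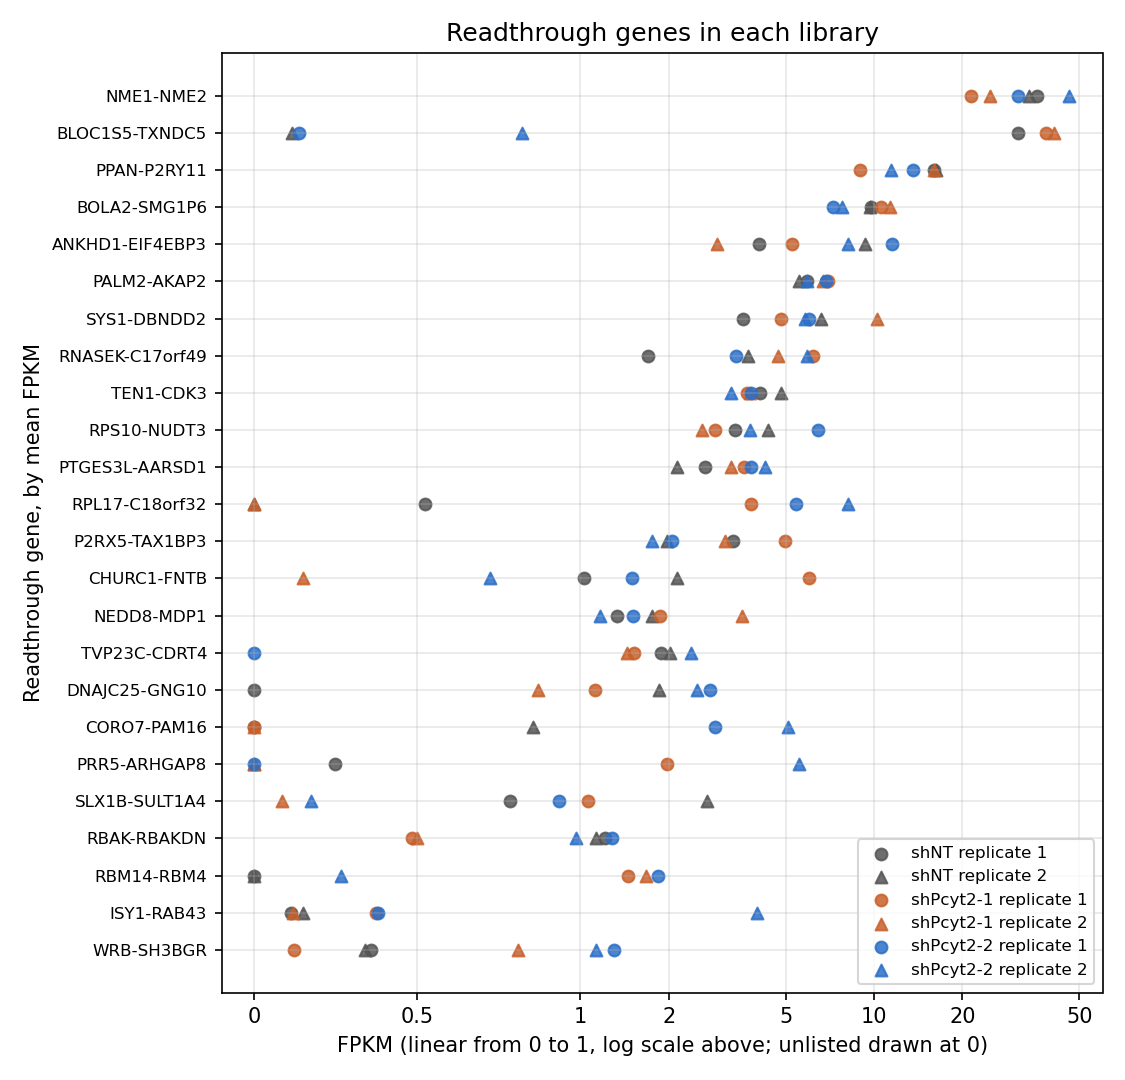
FPKM (horizontal axis, linear from 0 to 1 and on a log scale above) of the 24 readthrough genes named here, 1 point per library, with colors for groups and shapes for replicates. BLOC1S5-TXNDC5 lies at 30.9 to 40.9 FPKM in 3 libraries and below 1 FPKM in the other 3, while PALM2-AKAP2 stays within 5.54 to 6.96 FPKM.

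Readthrough genes went in and out of the listing from library to library. Of the 38 readthrough genes that reached 1 FPKM in some library, 8 (21.1%) were unlisted in another, beside 0.417% of the 12233 genes that reached that level. The number of the 73 that were unlisted was 10 and 6 with shNT, 9 and 8 with shPcyt2-1, and 8 and 7 with shPcyt2-2, so no single library lacked most of them. The FPKM summed over the 73 genes was 160 and 148 with shNT, 173 and 170 with shPcyt2-1, and 152 and 169 with shPcyt2-2.

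At the limit of the listing rule, 7 genes were listed in exactly 3 libraries and 10 more readthrough genes in exactly 2. CORO7-PAM16 and PRR5-ARHGAP8 had the highest means of those just inside. TRIM39-RPP21 and JMJD7-PLA2G4B had the highest means of those just outside. TRIM39-RPP21 stood at 2.37 FPKM in shNT replicate 1 and 0.931 FPKM in shPcyt2-2 replicate 1. JMJD7-PLA2G4B was listed in both shNT libraries (0.979 and 0.856 FPKM) and in no knockdown library.

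BLOC1S5-TXNDC5 showed the widest swing. It joins BLOC1S5, a subunit of a complex that builds lysosome-related organelles, to TXNDC5, a protein disulfide isomerase of the endoplasmic reticulum, and none of its exon bases was its own. Its values were 30.9 and 0.116 FPKM with shNT, 38.5 and 40.9 FPKM with shPcyt2-1, and 0.139 and 0.819 FPKM with shPcyt2-2. The shNT libraries thus lay on either side, 1 with both shPcyt2-1 libraries and 1 with both shPcyt2-2 libraries. TXNDC5 stood at 50.1 and 81.8, 43.7 and 43.1, and 96.6 and 92.8 FPKM in the same order, low where the readthrough gene was high. The sum of the readthrough gene and TXNDC5 was 81.0 and 81.9 FPKM with shNT, 82.2 and 84.0 FPKM with shPcyt2-1, and 96.8 and 93.6 FPKM with shPcyt2-2. Within shNT, where the readthrough gene differed by 30.8 FPKM, the sums differed by 0.904 FPKM. The sum over the whole locus was 0.22 higher with shPcyt2-2 than with shNT on the log2 scale (SE 0.06, limma adjusted p = 0.0366), and for shPcyt2-1 the change was 0.04 (limma adjusted p = 0.62). BLOC1S5 varied between 4.66 and 5.98 FPKM.

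ANKHD1-EIF4EBP3 joins an ankyrin repeat protein to EIF4EBP3, an inhibitor of translation initiation. Its values were 4.06 and 9.33 FPKM with shNT, 5.24 and 2.93 FPKM with shPcyt2-1, and 11.5 and 8.13 FPKM with shPcyt2-2, so shNT overlapped both hairpins. ANKHD1 ran the other way, at 12.8 and 8.28, 12.3 and 12.8, and 6.67 and 6.78 FPKM. Added to ANKHD1, the readthrough gene gave 16.9 and 17.6 FPKM with shNT, 17.5 and 15.7 FPKM with shPcyt2-1, and 18.1 and 14.9 FPKM with shPcyt2-2, and these sums overlapped in all 3 groups. TVP23C-CDRT4 gave a similar picture with its downstream neighbor. The readthrough gene stood at 1.89 and 2.02, 1.52 and 1.44, and 0 and 2.37 FPKM, and CDRT4 was listed only in shPcyt2-2 replicate 1, at 1.75 FPKM, the library in which the readthrough gene was unlisted.

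Loci with a listed neighbor that is not identical in value to the readthrough gene numbered 66. Any narrowing was counted, with either neighbor, and no background from other gene pairs was taken. In 25 of the 66 loci the sum with at least 1 neighbor spanned fewer FPKM than the readthrough gene alone. In 5 of them the sum spanned at most 50% of the readthrough gene's own range, and these were the loci of ANKHD1-EIF4EBP3, BLOC1S5-TXNDC5, TVP23C-CDRT4, ZNF559-ZNF177 and ZNF816-ZNF321P, the last 2 being zinc finger loci chosen here after their values were seen. In 3 further loci (IQCJ-SCHIP1, LY6G6F-LY6G6D and LINC02210-CRHR1, also chosen after their values were seen) the readthrough gene and a neighbor were listed with identical values in every library, and cannot be told apart.

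**Figure D2:**
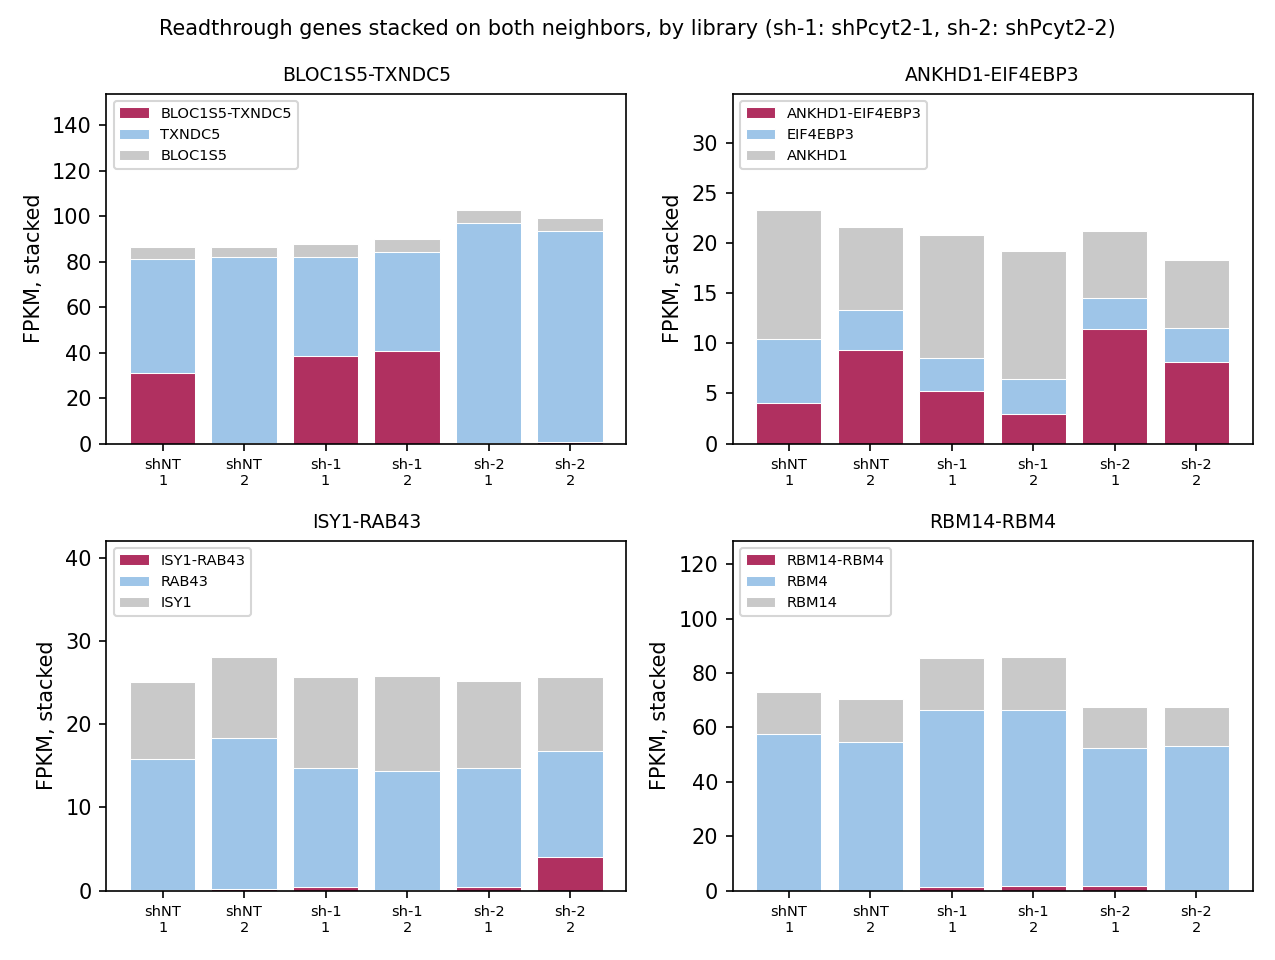
FPKM of 4 readthrough genes stacked on both neighbors, 1 bar per library (sh-1 is shPcyt2-1, sh-2 is shPcyt2-2). For BLOC1S5-TXNDC5 the readthrough part goes from 0.116 to 40.9 FPKM while the bar height stays between 86.3 and 103 FPKM, and for ISY1-RAB43 the readthrough part stands out in shPcyt2-2 replicate 2 alone.

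In several readthrough genes 1 library stood apart from the rest. Differences below are on log2(FPKM + 1), which understates the change of low genes. Of the 73 genes 39 had a mean of at least 0.5 FPKM and were tested, and the filter took no account of groups. A gene that passed it through 1 high library had to vary, so the counts here describe the 39 and are not support for a difference. In 4 of the 39 (10.3%) 1 library lay over 1 log2 unit beyond the other 5, beside 0.251% of all 12756 genes tested, 1 of 108 neighbors and 2 of 67 locus sums. These were ISY1-RAB43, PRR5-ARHGAP8, CHURC1-FNTB and TVP23C-CDRT4. The library concerned was shPcyt2-2 replicate 2 for 2 of them, shPcyt2-1 replicate 1 for 1, and shPcyt2-2 replicate 1 for 1.

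ISY1-RAB43 joins a splicing factor to a small GTPase and has no exon base of its own. It stood at 0.113 and 0.15 FPKM with shNT, 0.372 and 0.119 FPKM with shPcyt2-1, and 0.379 and 3.98 FPKM with shPcyt2-2. Only shPcyt2-2 replicate 2 was above 1 FPKM, by 1.85 log2 units over the next library. RAB43 was lowest in that same library, at 12.7 FPKM, beside 14.2 to 18.2 FPKM in the others, and ISY1 was lowest there as well, at 8.96 FPKM. The locus sum was 25.0 and 28, 25.7 and 25.8, and 25.2 and 25.7 FPKM. Without the shPcyt2-2 libraries its mean was 0.189 FPKM, so it passed the filter through them, and its values are a description with no test. Its locus sum changed by -0.06 with shPcyt2-2 (limma adjusted p = 0.645).

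PRR5-ARHGAP8 joins PRR5, a component of the mTORC2 kinase complex, to ARHGAP8. It was listed at 0.247 FPKM in shNT replicate 1, 1.97 FPKM in shPcyt2-1 replicate 1 and 5.56 FPKM in shPcyt2-2 replicate 2, and was unlisted in the other library of each group. Each group thus held 1 listed and 1 unlisted library. CHURC1-FNTB, whose downstream gene encodes the farnesyltransferase beta subunit, stood at 1.03 and 2.13, 5.99 and 0.15, and 1.50 and 0.724 FPKM. Both extremes fell within shPcyt2-1. FNTB meanwhile kept to 6.12 to 6.83 FPKM. DNAJC25-GNG10, next in the size of its gap, was unlisted in shNT replicate 1 and between 0.869 and 2.75 FPKM elsewhere. SLX1B-SULT1A4 reached 2.70 FPKM in shNT replicate 2 against 0.0851 to 1.06 FPKM in the others. SLX1B, the nuclease subunit at that locus, was at 0.386 FPKM in the same library and at 0.524 FPKM in shPcyt2-2 replicate 1, and stood at 15 and 16.9 FPKM in shNT replicate 1 and shPcyt2-1 replicate 1. The locus has a near-identical copy, so its values are uncertain.

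The libraries of a group differed more for the tested readthrough genes than for other genes. A gene that passed a filter through 1 high library had to vary, so these values describe the 39. The absolute log2 difference between the 2 libraries, averaged over the 3 groups, had a median of 0.37 over the 39 readthrough genes, beside 0.11 over all genes tested, 0.13 over the neighbors and 0.10 over the locus sums. A pair of libraries differed by over 1 log2 unit in at least 1 group for 12 of the 39 (30.8%), and for 0.706% of all genes. Readthrough genes with a mean of at least 2 FPKM (20 genes) had a median of 0.32 and all genes at that level a median of 0.11. The 31 readthrough genes listed in all 6 libraries had a median of 0.30. Those listed in 3 to 5 (8 genes), with unlisted values set to 0, had a median of 0.61. The 15 readthrough genes with no exon base of their own had a median of 0.60, and the other 24 one of 0.31, with ranges of 0.09 to 1.87 and 0.03 to 1.53 that overlap widely. The part of exon sharing in these differences was not tested.

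**Figure D3:**
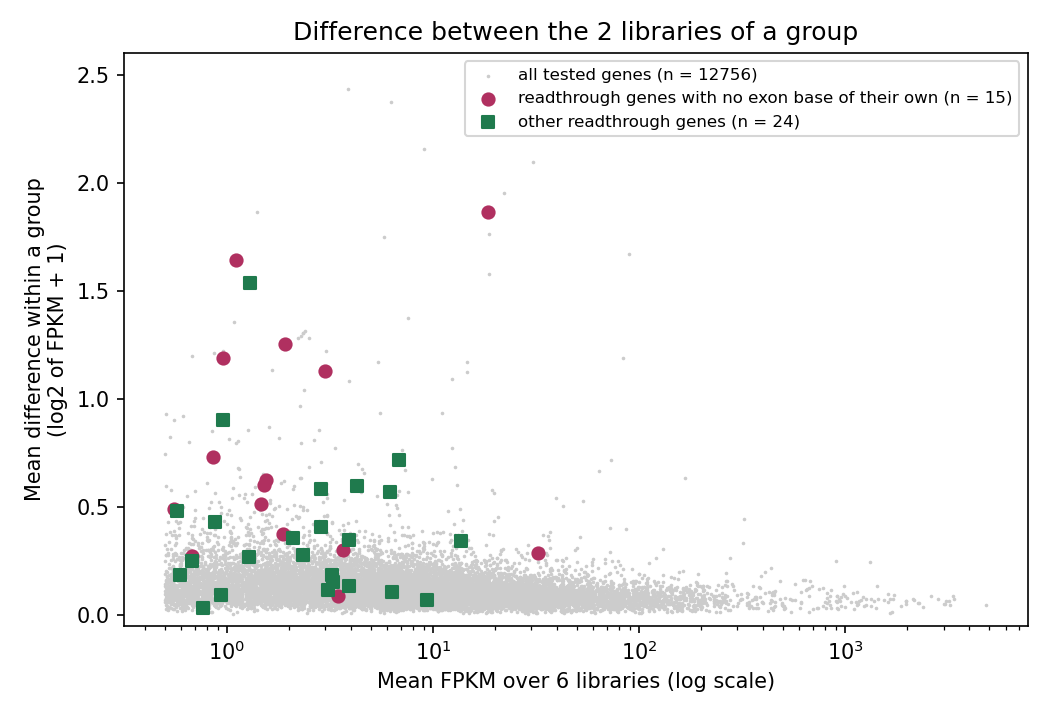
Mean absolute difference between the 2 libraries of a group on log2(FPKM + 1) (vertical axis) against mean FPKM over 6 libraries (log scale), for 12756 genes in gray and 39 readthrough genes in color. Readthrough genes reach from 0.03 to 1.87, with a median of 0.37 beside 0.11 over all genes.

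With shPcyt2-1, 5 of the 39 readthrough genes passed the test (limma, adjusted p under 0.05 over all 12756 genes), 3 higher and 2 lower, beside a background of 26.7% of all genes (16.5% higher and 10.1% lower). Without shNT replicate 1, shNT replicate 2 or shPcyt2-1 replicate 2 the count that passed was 9, 3 and 10, beside 23.9%, 13.6% and 14.5% of all genes in the same fits. With no expression limit it was 1 (beside 9.27%), and with median-ratio scaling 3 (beside 24.9%). RBM14-RBM4, 1 of the 3 higher genes, met the listing rule only with the libraries of both hairpins, so its values are a description with no test. Both hairpin libraries lay on the same side of both shNT libraries for 16 of the 39, beside 69.0% of all genes. The median change was 0.11 over the 39 and 0.07 over all genes. RNASEK-C17orf49 was higher, at 1.70 and 3.72 FPKM with shNT and 6.20 and 4.71 FPKM with shPcyt2-1. Both hairpin libraries were above both shNT libraries, and the change was 0.85 (SE 0.27, limma adjusted p = 0.0472). It fell to 0.44 without shNT replicate 1, the lowest library (limma adjusted p = 0.232), and the call was also lost without shPcyt2-1 replicate 1 (limma adjusted p = 0.15). PTGES3L-AARSD1, which joins a cochaperone-like gene to a gene with a tRNA editing domain, stood at 2.65 and 2.14 FPKM with shNT and at 3.60 and 3.25 FPKM with shPcyt2-1. The groups did not overlap and the change was 0.39 (SE 0.11, limma adjusted p = 0.037). Its call was lost without shNT replicate 2 or either shPcyt2-1 library (limma adjusted p = 0.194, 0.214 and 0.0805).

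The genes that fell with shPcyt2-1 were NME1-NME2 and RBAK-RBAKDN. NME1-NME2, with the values given above, changed by -0.57 (SE 0.15, limma adjusted p = 0.0256), while NME1 rose by 0.32 (SE 0.05, limma adjusted p = 0.00456). The NME1-NME2 call was lost without shNT replicate 1, shNT replicate 2 or shPcyt2-1 replicate 1 (limma adjusted p = 0.0858, 0.0725 and 0.0937). RBAK-RBAKDN extends RBAK, a zinc finger repressor, into a downstream noncoding gene. It stood at 1.21 and 1.13 FPKM with shNT and at 0.482 and 0.499 FPKM with shPcyt2-1, with shPcyt2-2 at 1.28 and 0.986 FPKM. Both shPcyt2-1 libraries were below all others, with a change of -0.54 (SE 0.11, limma adjusted p = 0.00997), and RBAK ran from 2.53 to 3.26 FPKM with no such order. Without shPcyt2-1 replicate 1 the adjusted p from limma was 0.0564.

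RBM14-RBM4 was the remaining higher gene. It joins a pair of RNA-binding proteins of splicing and was among the examples by which these genes were defined. It was unlisted in both shNT libraries and stood at 1.45 and 1.67 FPKM with shPcyt2-1 and at 1.84 and 0.267 FPKM with shPcyt2-2. It was listed in all 4 knockdown libraries, so in 2 libraries outside shPcyt2-1, and shPcyt2-2 replicate 2 was well below the other 3. No fold is given against a group listed at 0. RBM14 stood at 15.7 and 16, 19.1 and 19.4, and 14.9 and 14.3 FPKM, and RBM4 at 57.5 and 54.7, 65.1 and 64.8, and 50.6 and 53.1 FPKM, so both neighbors were highest with shPcyt2-1. The readthrough gene made up at most 2.73% of the locus sum.

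With shPcyt2-2, 5 of the 39 passed the test, 4 higher and 1 lower, beside a background of 12.4% of all genes (7.69% higher and 4.74% lower), a share near their own of 12.8%. Without shNT replicate 2, shPcyt2-2 replicate 1 or shPcyt2-2 replicate 2 the count was 3, 2 and 3, beside 3.15%, 0.981% and 5.51% of all genes in the same fits. With no expression limit it was 0 (beside 0.628%), so each of these calls was lost. CORO7-PAM16, RPL17-C18orf32 and WRB-SH3BGR, 3 of the 4 higher genes, met the listing rule or the mean of 0.5 FPKM through the shPcyt2-2 libraries themselves, so that group had to be high, and their values are a description with no test. Both hairpin libraries lay on the same side of both shNT libraries for 17 of the 39, beside 57.5% of all genes. The median change was 0.13 over the 39 and 0.04 over all genes. Both hairpins were compared with the same shNT libraries. CORO7-PAM16, which joins a Golgi coronin to PAM16, a part of the mitochondrial import motor, stood at 0 and 0.855 FPKM with shNT, 0 and 0 FPKM with shPcyt2-1, and 2.87 and 5.08 FPKM with shPcyt2-2. Both shPcyt2-2 libraries were above all others. Outside that hairpin it was listed in 1 library, with a mean of 0.214 FPKM. PAM16 stood at 47.5 and 23.1, 57.4 and 33.6, and 22.0 and 0 FPKM, and its 3 lowest libraries were the 3 in which the readthrough gene was listed. The locus sum did not stay level. It was 48.9 and 25.7 FPKM with shNT, 59.8 and 36.6 FPKM with shPcyt2-1, and 26.0 and 5.68 FPKM with shPcyt2-2.

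RPL17-C18orf32 joins the gene of a large ribosomal subunit protein to its neighbor and has no exon base of its own. It stood at 0.524 and 0 FPKM with shNT, 3.80 and 0 FPKM with shPcyt2-1, and 5.42 and 8.13 FPKM with shPcyt2-2. Both shPcyt2-2 libraries were highest, and outside that hairpin it was listed in 2 libraries. RPL17 itself was at 910 and 774, 449 and 488, and 918 and 924 FPKM, so the readthrough gene made up at most 0.87% of the locus. RPL17 fell by 0.84 with shPcyt2-1 (SE 0.08, limma adjusted p = 0.000477), and the locus sum fell by 0.83 with it (SE 0.08, limma adjusted p = 0.000312).

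WRB-SH3BGR extends WRB, a receptor for the insertion of tail-anchored proteins, and stood at 0.359 and 0.340 FPKM with shNT and 1.30 and 1.13 FPKM with shPcyt2-2, with shPcyt2-1 at 0.122 and 0.807 FPKM. The shPcyt2-2 libraries were highest, and without them its mean was 0.407 FPKM. WRB rose with both hairpins, by 0.57 with shPcyt2-1 (SE 0.09, limma adjusted p = 0.00353) and by 0.40 with shPcyt2-2 (SE 0.09, limma adjusted p = 0.0247). The PTGES3L-AARSD1 locus sum was 17.2 and 18.5 FPKM with shNT and 17.0 and 17.2 FPKM with shPcyt2-2, so the groups overlapped. PTGES3L-AARSD1 itself was at 3.80 and 4.26 FPKM with shPcyt2-2, a change of 0.57 (SE 0.11, limma adjusted p = 0.0173). Its call was lost without shNT replicate 2 or either shPcyt2-2 library (limma adjusted p = 0.103, 0.0832 and 0.0682), and AARSD1 ran from 10.5 to 13.9 FPKM.

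BOLA2-SMG1P6 was the 1 gene lower with shPcyt2-2. It stood at 9.78 and 9.68 FPKM with shNT, 10.5 and 11.4 FPKM with shPcyt2-1, and 7.23 and 7.81 FPKM with shPcyt2-2. The groups did not overlap and the change was -0.33 (SE 0.09, limma adjusted p = 0.0371). That call was lost with any one of the 6 libraries left out, at limma adjusted p from 0.0621 to 0.168, while the change stayed between -0.38 and -0.29. BOLA2 changed by -0.76 (SE 0.10, limma adjusted p = 0.00471), and the locus sum by -0.59 (SE 0.08, limma adjusted p = 0.00436).

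**Figure D4:**
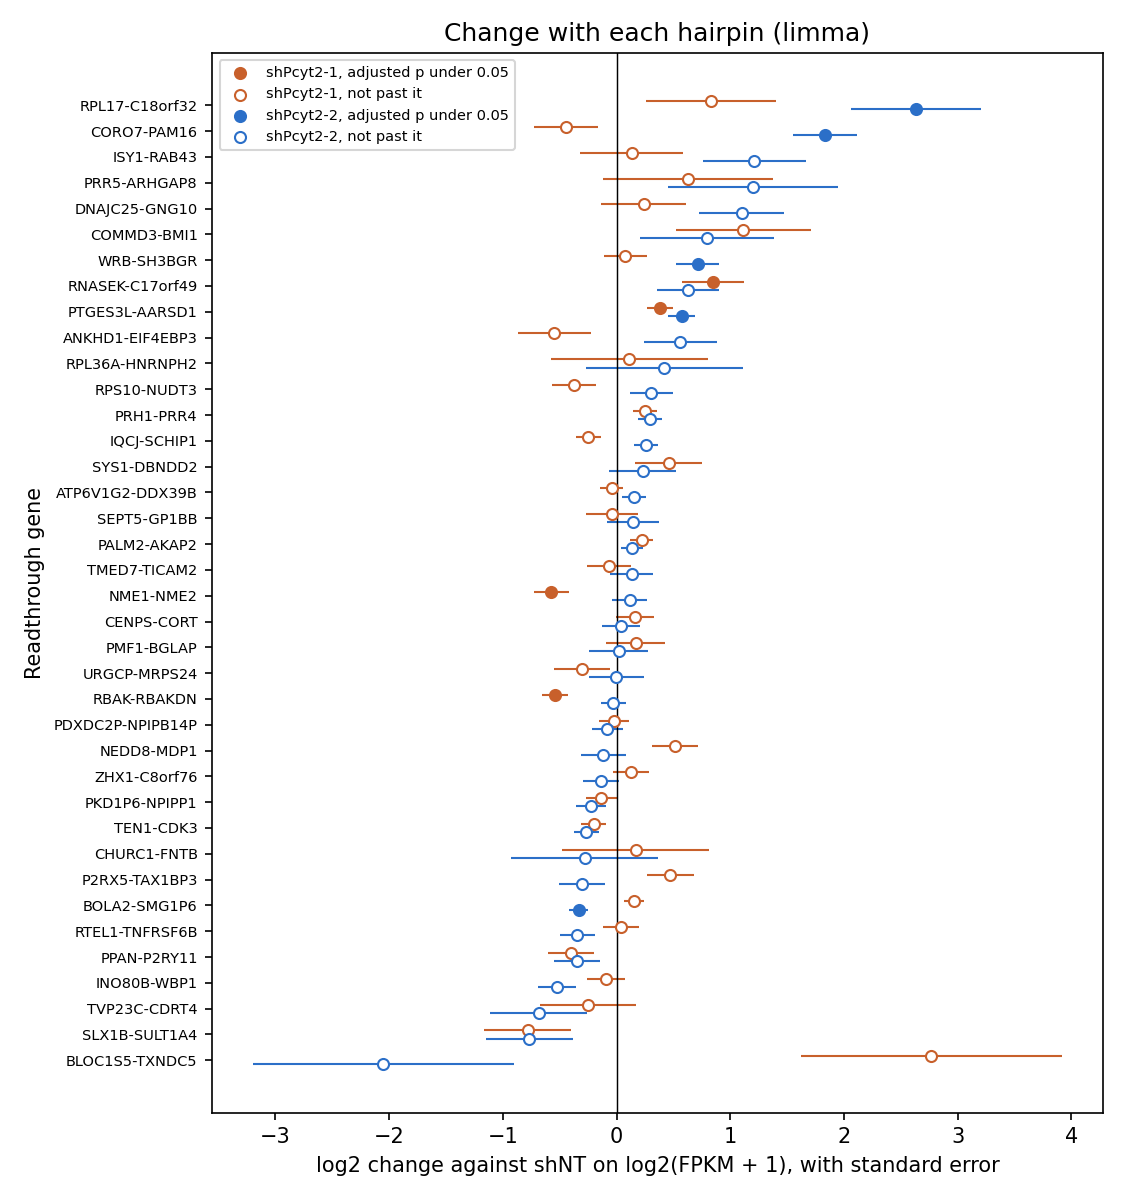
Change against shNT on log2(FPKM + 1) with its standard error for shPcyt2-1 (orange) and shPcyt2-2 (blue) in 38 tested readthrough genes. Filled points mark a limma adjusted p under 0.05, and RBM14-RBM4 is left out because shNT is listed at 0. CORO7-PAM16, RPL17-C18orf32, WRB-SH3BGR and ISY1-RAB43 entered through shPcyt2-2. PRR5-ARHGAP8 and RPL36A-HNRNPH2 met the listing rule only with the libraries of all groups. BLOC1S5-TXNDC5 has the widest bars, with an SE of 1.15, and none of its changes against shNT passed the test.

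Between the hairpins, 12 of the 39 differed, 8 higher with shPcyt2-2 and 4 lower, beside a background of 27.1% of all genes (12.9% higher and 14.2% lower). The count was 7 without shPcyt2-2 replicate 2 (beside 15.6% of all genes in that fit), and 5 with no expression limit (beside 12.3%). It includes CORO7-PAM16, RPL17-C18orf32 and WRB-SH3BGR, which entered through shPcyt2-2 and are given here without a test. The median difference was 0.01 over the 39 and -0.02 over all genes. CORO7-PAM16 was unlisted in both shPcyt2-1 libraries. BLOC1S5-TXNDC5 was lower by far, with a difference of -4.82 (SE 1.15, limma adjusted p = 0.0146), and TXNDC5 was higher by 1.11 (SE 0.17, limma adjusted p = 0.00224). The BLOC1S5-TXNDC5 call was lost without shPcyt2-2 replicate 1 (-4.48, limma adjusted p = 0.0987) or shPcyt2-2 replicate 2 (-5.16, limma adjusted p = 0.0662), with a difference about as large. ANKHD1-EIF4EBP3 was higher by 1.11 (SE 0.32, limma adjusted p = 0.0306), and ANKHD1 differed by -0.81 (SE 0.16, limma adjusted p = 0.00611). That call on ANKHD1-EIF4EBP3 was lost without shPcyt2-1 replicate 2 or either shPcyt2-2 library (limma adjusted p = 0.0909, 0.182 and 0.0683).

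NME1-NME2 was higher with shPcyt2-2 by 0.69 (SE 0.15, limma adjusted p = 0.0112), a value of 0.41 without shPcyt2-2 replicate 2 (limma adjusted p = 0.0457). The difference of RPL17-C18orf32 was 1.80, from 0.67 without shPcyt2-1 replicate 2 to 2.94 without shPcyt2-1 replicate 1. RPS10-NUDT3 was higher by 0.68 (SE 0.19, limma adjusted p = 0.0283), at 2.86 and 2.59 FPKM with shPcyt2-1 and 6.46 and 3.78 FPKM with shPcyt2-2. Its value was 0.36 without shPcyt2-2 replicate 1 (limma adjusted p = 0.133), and the call was also lost without shPcyt2-1 replicate 2 (limma adjusted p = 0.0682). P2RX5-TAX1BP3, which runs from an ATP-gated channel gene into a PDZ protein gene, was lower with shPcyt2-2, at 4.99 and 3.11 FPKM with shPcyt2-1 and 2.04 and 1.76 FPKM with shPcyt2-2. The difference was -0.78 (SE 0.21, limma adjusted p = 0.0223), and -0.50 without shPcyt2-1 replicate 1 (limma adjusted p = 0.116). The call was also lost without either shPcyt2-2 library (limma adjusted p = 0.0773 and 0.117). TAX1BP3 differed by -0.61 (SE 0.12, limma adjusted p = 0.00663).

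NEDD8-MDP1 joins the ubiquitin-like modifier NEDD8 to a phosphatase gene and stood at 1.87 and 3.54 FPKM with shPcyt2-1 and 1.51 and 1.16 FPKM with shPcyt2-2. The difference was -0.63 (SE 0.20, limma adjusted p = 0.0439), from -0.30 without shPcyt2-1 replicate 2 to -0.96 without shPcyt2-1 replicate 1, and only the latter kept the call. BOLA2-SMG1P6 differed by -0.49 (SE 0.09, limma adjusted p = 0.00395). IQCJ-SCHIP1 was higher with shPcyt2-2 by 0.51 (limma adjusted p = 0.00904), a call lost without shPcyt2-1 replicate 2 or shPcyt2-2 replicate 2 (limma adjusted p = 0.0774 and 0.0523). RBAK-RBAKDN was higher by 0.52 (limma adjusted p = 0.0104), lost without shPcyt2-1 replicate 1 (limma adjusted p = 0.0556). The difference of WRB-SH3BGR was 0.63, from 0.29 without shPcyt2-1 replicate 1 to 0.98 without shPcyt2-1 replicate 2. Of the genes that did not enter through shPcyt2-2, BOLA2-SMG1P6 and NME1-NME2 kept this call whichever library was left out.

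When the 4 knockdown libraries were pooled and compared with shNT, 0 of the 39 passed the limma test, and 4 had an unadjusted p under 0.05. The background was 0.00784%, or 1 of 12756 genes, with 2128 at an unadjusted p under 0.05. PCYT2 itself did not pass in this fit, with a change of -0.80 (SE 0.11, limma adjusted p = 0.115). The median change was 0.05 over the 39 and 0.05 over all genes.

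With shPcyt2-1, 30 of 108 tested neighbors passed the limma test (27.8%, beside 26.7% of all genes). Of these 22 were higher (20.4%, beside 16.5%) and 8 lower (7.41%, beside 10.1%). With shPcyt2-2, 17 passed (15.7%, beside 12.4%), 6 of them higher (5.56%, beside 7.69%) and 11 lower (10.2%, beside 4.74%). With no expression limit these counts were 14 and 0, in fits where a smaller share of all genes passed as well, as given above. Among the neighbors of the genes named here PRR5 fell with both hairpins, by 0.62 with shPcyt2-1 (SE 0.09, limma adjusted p = 0.00291) and by 0.39 with shPcyt2-2 (SE 0.09, limma adjusted p = 0.0304). Summed with its readthrough gene and ARHGAP8, the fall with shPcyt2-1 was 0.44 (SE 0.07, limma adjusted p = 0.00308). With shPcyt2-2 that sum was 41.6 and 41.4 FPKM, beside 44.1 and 48.9 FPKM with shNT. In the table with locus sums in place of their parts, 16 of 67 loci passed with shPcyt2-1, beside 27.3% of the rows tested. With shPcyt2-2 it was 9 of 67, beside 13.1%. With no expression limit it was 9 and 0, and a smaller share of all genes passed there too. Fewer neighbors passed for shPcyt2-1 without shNT replicate 2 or either shPcyt2-1 library. For shPcyt2-2 fewer neighbors passed without shNT replicate 2 or either shPcyt2-2 library. Locus sums that passed were also fewer for shPcyt2-1 without either of its libraries. The same held for shPcyt2-2 without shNT replicate 2 or either shPcyt2-2 library. A smaller share of all genes passed without each of these libraries as well. Whether the drop was particular to neighbors or loci was not tested.

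Genes of 3' end cleavage, polyadenylation and transcription termination were a list of 33, all tested. With shPcyt2-1, 8 passed the limma test, 8 higher and 0 lower, and with shPcyt2-2, 4 did, 3 higher and 1 lower. These shares, 24.2% and 12.1%, stood beside 26.7% and 12.4% of all genes. By direction, 24.2% were higher and 0% lower with shPcyt2-1, beside 16.5% and 10.1% of all genes, and 9.09% higher and 3.03% lower with shPcyt2-2, beside 7.69% and 4.74%. With no expression limit the counts were 3 and 1, in fits where a smaller share of all genes passed as well, as given above. With median-ratio scaling the count for shPcyt2-1 was 3, while the share of all genes changed little. The median changes were 0.17 and 0.06, beside 0.07 and 0.04 over all genes. WDR82, a subunit of a phosphatase complex of termination, was at 31.1 and 31.0 FPKM with shNT, 36.5 and 38.8 FPKM with shPcyt2-1, and 46.0 and 44.2 FPKM with shPcyt2-2. Both hairpins lay above shNT, and WDR82 rose by 0.27 (SE 0.07, limma adjusted p = 0.0187) and 0.52 (SE 0.07, limma adjusted p = 0.00385). PPP1CA, a catalytic subunit of protein phosphatase 1, fell by 0.51 with shPcyt2-2 (SE 0.07, limma adjusted p = 0.00447), and PPP1CB, another, rose by 0.42 with shPcyt2-1 (SE 0.09, limma adjusted p = 0.00936). PAPOLG, a poly(A) polymerase, rose by 0.40 with shPcyt2-2 (SE 0.11, limma adjusted p = 0.04997). Fewer of the 33 passed with shPcyt2-1 without shNT replicate 2 or either shPcyt2-1 library. With shPcyt2-2 fewer of them passed without shNT replicate 2 or either shPcyt2-2 library. A smaller share of all genes passed in each of these fits as well. Whether the drop was particular to this list was not tested.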

How the data were processed

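The SW480 RNA-Seq series held libraries with shNT, shPcyt2-1 or shPcyt2-2 (2 each), and 2 library kits appear in the labels, with no record of which libraries either served. The authors deposited 1 table per library with a value per Ensembl identifier, read here as FPKM from the values (TPM over part of the genes cannot be told apart from it), and only values above 0 are listed. An unlisted gene was set to 0. The aligner and annotation are not given in the sources used here. The submitters' processing notes name the builds GRCh38, GRCm38 and mm10 without a role. GENCODE release 29 (GRCh38) supplied symbols, exons and junctions and matched 19504 of 21539 identifiers, so readthrough genes named otherwise in the authors' annotation are missed.

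The members and the lists used were chosen with earlier results of these data known. The design assumed normalized values, so limma stood in for the count-based R package of the study's methods. Repeated identifiers (115) were summed and 999 groups of identical rows merged, which left 19746 genes. Those whose mean reached 0.5 FPKM (12756) entered limma 3.58.1 (R 4.3.3) as log2(FPKM + 1) values, with the trend option for the variance, 3 groups (2 for the pooled comparison) and Benjamini-Hochberg adjustment at 0.05. A second table held locus sums (a readthrough gene plus both neighbors) in place of their parts. The fits were tested on simulated data. Counting intervals are left out because the read depth is unknown, and groups of 2 libraries limit the precision.

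Named genes were the 10 with the highest mean, per comparison up to 5 called higher and 5 lower by size of change, the 6 with the largest gap between 1 library and the next, RBM14-RBM4, ISY1-RAB43, up to 2 just inside and just outside the listing rule, the neighbors of these, PCYT2, and up to 4 genes of 3' end processing. Other settings tried were a pseudocount of 0.1, no expression limit, a block for the replicate number, the fit without each library, median-ratio scaling and members listed in all 6 libraries. Figures were drawn with matplotlib 3.10.9 in Python 3.11.15.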

Additional observations from a re-analysis of the deposited data

Results flagged for a closer look

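Readthrough genes with an effect that differed between the hairpins, by the test of the difference itself (limma adjusted p under 0.05, shPcyt2-2 minus shPcyt2-1 on log2(FPKM + 1)), were 12 of 39 (30.8%), a share near the 27.1% of all genes tested. BLOC1S5-TXNDC5 (-4.82), P2RX5-TAX1BP3 (-0.78), NEDD8-MDP1 (-0.63) and BOLA2-SMG1P6 (-0.49) were lower with shPcyt2-2. CORO7-PAM16 (2.28 as fitted, with shPcyt2-1 listed at 0 and so no fold), RPL17-C18orf32 (1.80), ANKHD1-EIF4EBP3 (1.11), NME1-NME2 (0.69), RPS10-NUDT3 (0.68), WRB-SH3BGR (0.63), RBAK-RBAKDN (0.52) and IQCJ-SCHIP1 (0.51) were higher. CORO7-PAM16, RPL17-C18orf32 and WRB-SH3BGR met the listing rule or the mean of 0.5 FPKM through the shPcyt2-2 libraries themselves, so their tests are no support for a difference. IQCJ-SCHIP1 and SCHIP1 were listed with identical values, so this difference cannot be assigned to either.

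Among the 4 knockdown libraries 1 of the 24 named readthrough genes had a library far from the others. In ISY1-RAB43 the gap of shPcyt2-2 replicate 2 to the nearest library was 0.933 of the whole range, above the critical value of Dixon's test for 4 samples. Chance marks about 1 group in 20 in this way. ISY1-RAB43 was named for the size of this gap and passed the mean of 0.5 FPKM through the shPcyt2-2 libraries, so the value is a description and the mark is no support for a difference.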

How the results depend on the processing

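Both PCYT2 changes kept their direction and their call under every alternative, from -0.84 to -0.62 with shPcyt2-1 and from -0.99 to -0.76 with shPcyt2-2 when 1 library was left out. Counts of readthrough genes that passed moved more. With no expression limit they were 1 for shPcyt2-1, 0 for shPcyt2-2 and 5 between the hairpins (beside 9.27%, 0.628% and 12.3% of all genes in that fit), and the counts were 14 and 0 for neighbors, 9 and 0 for locus sums, and 3 and 1 for 3' end processing genes. More low genes were tested in that fit. Median-ratio scaling gave 3 readthrough genes and 3 genes of 3' end processing for shPcyt2-1, beside 24.9% of all genes. Of the 31 tested members listed in all 6 libraries, 3 passed for shPcyt2-2, beside 12.4% of all genes. With 1 library left out, readthrough counts ran from 3 to 10 for shPcyt2-1, from 2 to 6 for shPcyt2-2 and from 7 to 10 between the hairpins, and were 0 throughout for the pooled comparison. The share of all genes that passed moved as well, from 9.1% to 26.3%, from 0.981% to 14.8% and from 13.1% to 29.7% in these fits, and was at most 0.00785% pooled. Neighbors ran from 9 to 30 and from 2 to 21, locus sums from 7 to 16 and from 2 to 13, and 3' end processing genes from 1 to 10 and from 0 to 5. The median readthrough share of the locus sum, 6.46% as a mean over libraries, ran from 6.0% to 6.82%, and over the 58 loci with no neighbor unlisted throughout, a setting chosen after seeing the data, it was 5.40%. The cause of these moves was not tested. Where a left-out library leaves 1 in its group, that sample is assumed to vary like the other groups.

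The replicate numbers were not treated as pairs in the main fit. Deviations of equally numbered libraries correlated at 0.0027, 0.062 and 0.191 across the 3 pairs of groups. Whether equally numbered libraries share an effect was not tested. With the replicate number as a block, counts were 6 readthrough genes for shPcyt2-1, 6 for shPcyt2-2, 12 between the hairpins and 0 pooled, 29 and 23 for neighbors, 16 and 11 for locus sums, and 11 and 8 for 3' end processing genes. The share of all genes that passed with the block was 30.4%, 15.9%, 30.3% and 0%. The count of 8 is over 1.5 times the 4 without the block. PCYT2 kept both calls with the block, at -0.73 and -0.88.

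No single call on a readthrough gene turned its direction under any alternative. This is no sign of stability for CORO7-PAM16, RPL17-C18orf32 and WRB-SH3BGR, since they entered through shPcyt2-2. Nor is it for RBM14-RBM4, which met the listing rule only with both hairpins and was listed at 0 in both shNT libraries. Of the 22 calls, 17 were lost with no expression limit, 5 with a pseudocount of 0.1, 5 with median-ratio scaling and 1 with the replicate block. With those 4 genes set aside, a call was lost 36 times when 1 library was left out, and in 32 of these the change itself moved by less than 1.5 times.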
